A study of Mus musculus with 6 samples.

Results

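The genes of cholinergic transmission were followed from the cells that make acetylcholine to the cells that carry its receptors. The 9 genes, of 31053 annotated in the count tables, were Chat, Slc5a7 and Slc18a3 (the source side), Ache (the degrading enzyme), the nicotinic receptor subunits Chrna3, Chrnb4 and Chrna7, and the muscarinic receptors Chrm2 and Chrm3. They were chosen by name for their role, with earlier results of these data known. Single-nucleus RNA-seq was made from nuclei of the enteric nervous system of mouse colon, sorted on DNA stain and on a nuclear tag (INTACT); the promoter that drives the tag is not stated in the labels. All mice were C57BL/6J of wild-type genotype. The groups were Stress (3 libraries; restraint on each of 7 days), Dexamethasone (1 library; injected over 7 days with this synthetic glucocorticoid) and Control (2 libraries). The ages of the mice, how many gave nuclei to a library, and any batch or pairing are not stated, so p-values measure the spread between libraries, which may be technical.

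In a cholinergic neuron, choline is taken up by the transporter Slc5a7, joined to an acetyl group by choline acetyltransferase (Chat) and packed into vesicles by Slc18a3. Released acetylcholine opens nicotinic receptors, which are channels built from subunits such as Chrna3 and Chrnb4, on other enteric neurons, and acts through the G-protein-coupled muscarinic receptors, chiefly Chrm2 and Chrm3, on smooth muscle. Acetylcholinesterase (Ache) ends the signal by splitting the transmitter. Acetylcholine is the main excitatory transmitter to gut muscle, and nitric oxide, made by Nos1, an inhibitory one.

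In GRCm38 coordinates with the GENCODE M21 annotation, Chat lay on chr14:32408203-32465989 on the minus strand. Slc18a3, on chr14:32462438-32464850, lay wholly inside the Chat gene on the same strand, and all 2413 of its bases fell outside the Chat exons. Chrna3 (chr9:55010111-55026562) and Chrnb4 (chr9:55028154-55048779) were neighbours on the minus strand with 1591 bases between them. The others lay apart: Slc5a7 on chr17:54273590-54299034 (minus), Ache on chr5:137287519-137294466 (plus), Chrna7 on chr7:63098692-63212569 (minus), Chrm2 on chr6:36388084-36528414 (plus) and Chrm3 on chr13:9875486-10360847 (minus).

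The sequences just before the annotated starts of the source genes and of Chrm2, the receptor on which most of the group comparison turns, are shown because the source genes share a locus or a profile across cell types. They are the upstream bases that fell in no annotated exon of the same gene, from RefSeq promoters of GRCm38.p6, each 5′ to 3′ on its own strand, and capitals mark the GC box (GGGCGG or CCGCCC, on either strand).
Chat, 170 bases, chr14:32465990-32466159, minus strand: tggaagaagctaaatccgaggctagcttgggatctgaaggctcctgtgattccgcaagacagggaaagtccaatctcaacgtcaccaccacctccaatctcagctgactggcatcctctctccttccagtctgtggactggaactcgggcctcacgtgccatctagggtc
Slc5a7, 250 bases, chr17:54299035-54299284, minus strand: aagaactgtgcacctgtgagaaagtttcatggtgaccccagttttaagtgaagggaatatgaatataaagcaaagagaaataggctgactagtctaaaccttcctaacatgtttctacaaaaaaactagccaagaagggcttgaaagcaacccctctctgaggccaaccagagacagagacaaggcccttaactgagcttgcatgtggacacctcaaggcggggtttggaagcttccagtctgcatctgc
Slc18a3, 250 bases, chr14:32464851-32465100, minus strand: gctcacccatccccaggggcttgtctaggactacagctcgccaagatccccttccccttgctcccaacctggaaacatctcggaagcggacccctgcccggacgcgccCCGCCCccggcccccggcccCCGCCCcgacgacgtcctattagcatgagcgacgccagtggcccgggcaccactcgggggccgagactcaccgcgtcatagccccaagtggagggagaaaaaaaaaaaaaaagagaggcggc
Chrm2, 250 bases, chr6:36387834-36388083, plus strand: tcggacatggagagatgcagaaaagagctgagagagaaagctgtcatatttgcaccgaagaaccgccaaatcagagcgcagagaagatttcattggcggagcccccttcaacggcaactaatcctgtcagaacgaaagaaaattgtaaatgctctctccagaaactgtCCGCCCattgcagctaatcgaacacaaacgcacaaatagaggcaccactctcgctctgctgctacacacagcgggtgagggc
The GC box was in 32.7% of 32851 mouse promoters over 250 upstream bases. Those were not cut at exons, so the shorter windows here had fewer bases in which to hold a motif. It occurred at 2 places in the Slc18a3 window and at 1 in the Chrm2 window, and these letters were not in the Chat and Slc5a7 windows. The glucocorticoid receptor half-site (AGAACA or TGTTCT), held by 16.1% of promoters, was not in any of the windows searched before the 9 genes; the Ache window held no base outside exons and the Chrnb4 window 15.

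The 6 libraries held 11040 barcodes and 58954323 UMIs (unique molecules counted), with total UMIs of 6057994 to 13155051 in Stress, 8781397 in Dexamethasone, and 6938731 and 14838057 in Control. After barcodes with under 300 genes or over 5% mitochondrial UMIs, and called doublets, were set aside, 3437 nuclei remained (31.1% of barcodes): 503 to 700 per Stress library, 377 in Dexamethasone, and 766 and 453 in Control. Median UMIs per kept nucleus were 1626, 3076 and 3508 in Stress, 3957 in Dexamethasone, and 1804 and 2109 in Control, so Stress 1 and Control 1 were the shallowest. Any pair of libraries shared at most 3 barcodes. Clustering without the 9 genes gave 23 clusters, of which 5 were named neuron-like by their markers (531 nuclei), and others glia-like (881), smooth muscle-like (313), epithelium-like (771), fibroblast-like (205) and lymphatic endothelium-like (157). In the neuron-like nuclei of every library 9 of 10 neuron markers were detected, while Tubb3 was at 0 in all. Their summed level was 6701 to 7560 CPM in Stress, 7218 in Dexamethasone, and 6239 and 7113 in Control. The same markers named these clusters, so their presence does not test the label. CPM is the usual depth-scaled count, a gene's UMIs relative to all UMIs of those nuclei in a library, and levels are compared here within a gene, not between genes of different length. A level in a class mixes the RNA per nucleus with the share of nuclei that express the gene.

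Chat and Slc5a7 were read almost entirely from neuron-like nuclei. Chat averaged 115 ± 17.4 CPM in neuron-like nuclei (SD, n = 6 libraries; 90.7 to 138) and 1.09 ± 1.19 CPM in glia-like nuclei, where 4 UMIs were counted. It was at 0 in smooth muscle-like, fibroblast-like and lymphatic endothelium-like nuclei, where a count of 0 allows up to 2.88, 6.42 and 9.17 CPM (3 counts of the summed total, counting error only), and had 9 UMIs in the 771 epithelium-like nuclei. Of the neuron-like nuclei, 33.0% had a Chat UMI at a median depth of 4444 UMIs, against 0.454% of glia-like nuclei at 3229. With each nucleus thinned to 1000 UMIs the shares were 10.8% of neuron-like and 0.247% of glia-like nuclei, and the glial share was read as background. Slc5a7 was also counted mostly in neuron-like nuclei, with 170 ± 40.5 CPM (751 of its 800 UMIs) there. It had 2 UMIs in smooth muscle-like, 1 in fibroblast-like and 3 in lymphatic endothelium-like nuclei. A UMI was seen in 13 glia-like and 13 epithelium-like nuclei. Thinned shares were 12.6% in neuron-like, 0.865% in glia-like and 0.625% in epithelium-like nuclei.

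No UMI of Slc18a3, the vesicular transporter, was counted in any of the 11040 barcodes. In the 531 neuron-like nuclei a count of 0 allows up to 0.662 CPM. The whole gene lies inside Chat on the same strand, and how the counting assigned reads of overlapping genes is not given in the sources used here. The 0 is therefore a value of the count tables and not a measure of the transporter's transcription, and part of what is counted as Chat may have come from it.

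**Figure D1:**
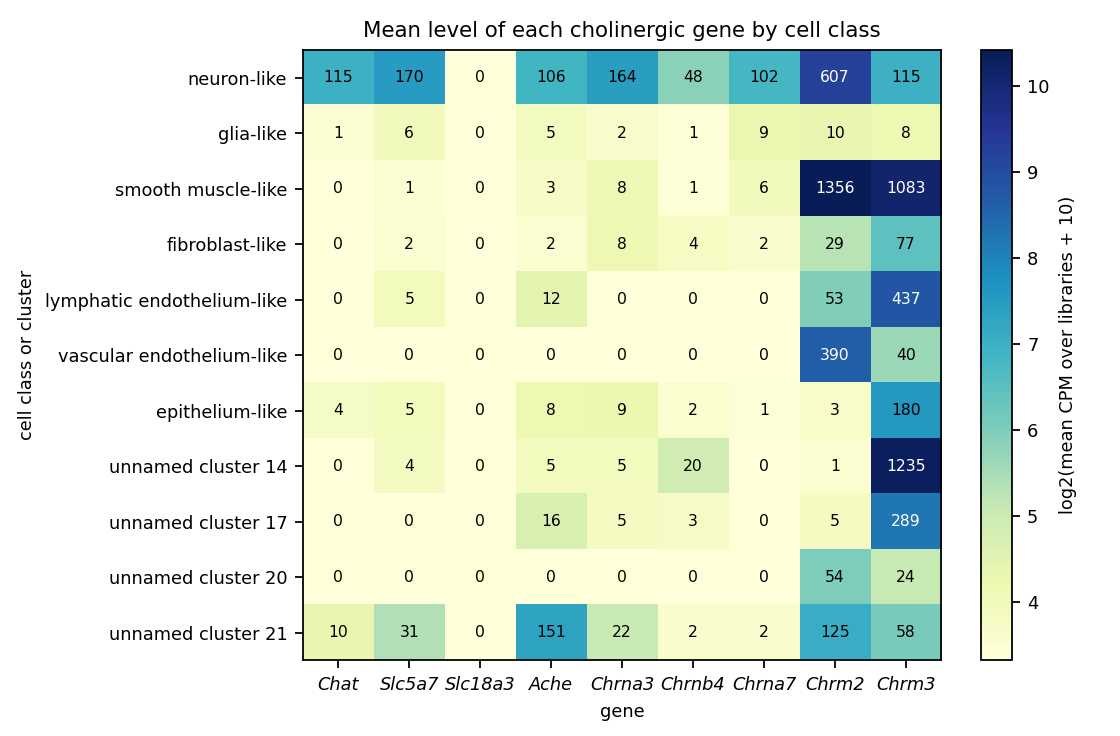
Mean level of the 9 genes (columns) in each class of nuclei (rows), in CPM over the libraries with enough nuclei, on the colour scale shown. Chat, Slc5a7 and the nicotinic subunits are concentrated in the neuron-like row, as is Ache apart from cluster 21 (7 UMIs), Chrm2 in the smooth muscle-like and neuron-like rows, and Chrm3 in smooth muscle-like nuclei and unnamed cluster 14; Slc18a3 is at 0.

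Among neuron types Chat was high in 2 clusters and near 0 in another. The 5 neuron clusters, like the other clusters, are called by 1 or 2 of their 10 leading genes: Tac1 and Penk (124 nuclei), which scored highest on the markers of excitatory motor neurons, Sst (93), Nmu (81), Vip and Gal (102) and Nos1 (131), the last 2 scoring highest on inhibitory markers. A score is the mean log2 fold of a marker list over the other nuclei. The Vip and Gal cluster scored 2.56 on inhibitory and 1.12 on secretomotor markers. The Nmu cluster scored highest on sensory markers (2.11), and the Sst cluster had 0.85 on sensory and 0.77 on excitatory ones. Chat averaged 276 ± 78.5 CPM in the Sst cluster (n = 5 libraries with at least 5 nuclei) and 215 ± 45.7 CPM in the Tac1 and Penk cluster (n = 6), and the ranges of these overlapped. It stood at 95.4 ± 31.7 CPM in the Nmu cluster (n = 5), below every library of the Tac1 and Penk cluster, and at 52.0 ± 39.3 CPM in the Vip and Gal cluster, overlapping the Nmu cluster. In the Nos1 cluster it was 1.14 ± 1.79 CPM, 2 UMIs in 131 nuclei. These nuclei were among the deepest, with a median of 5953 UMIs, and thinned to 1000 UMIs 0 of 125 Nos1 nuclei held a Chat UMI, which allows up to 2.40% of nuclei with a UMI at that depth and does not limit the share that expresses the gene. The thinned share was 22.8% of Sst nuclei and 18.8% of Tac1 and Penk nuclei.

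The choline transporter Slc5a7 was highest in the Tac1 and Penk cluster, at 335 ± 114 CPM (n = 6), with 323, 342 and 411 CPM in Stress, 223 CPM in Dexamethasone, and 207 and 508 CPM in Control. The Sst and Nmu clusters were at 177 ± 81.5 and 174 ± 87.7 CPM (n = 5 each) and the Vip and Gal cluster at 126 ± 93.4 CPM (n = 6). The Nos1 cluster had 21.9 ± 18.6 CPM from 23 UMIs. Each neighbour in this order overlapped the next, so only distant clusters stood apart.

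Within nuclei, Chat and Slc5a7 were often seen together. Of the 175 neuron-like nuclei with a Chat UMI, 104 (59.4%) also had one of Slc5a7, against 24.4% of those without. In the Tac1 and Penk cluster alone the shares were 74.3% of 70 nuclei with Chat and 31.5% of the rest. Nos1, the enzyme for nitric oxide, went the other way, in 22.9% of nuclei with Chat and 57.3% of those without. Within the 2 clusters of highest Chat it did not: Nos1 was in 20% of nuclei with Chat and 14.8% of those without in the Tac1 and Penk cluster, and in 14% and 8.33% in the Sst cluster. Penk, which encodes enkephalins, was in 40.6% of nuclei with Chat and 16.3% of those without, Tac1, which encodes substance P, in 52.0% and 27.5%, and Vip in 25.1% and 36.8%. Nuclei of a library share its depth, and a deeper nucleus shows more genes of every kind, so these shares are descriptions.

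**Figure D2:**
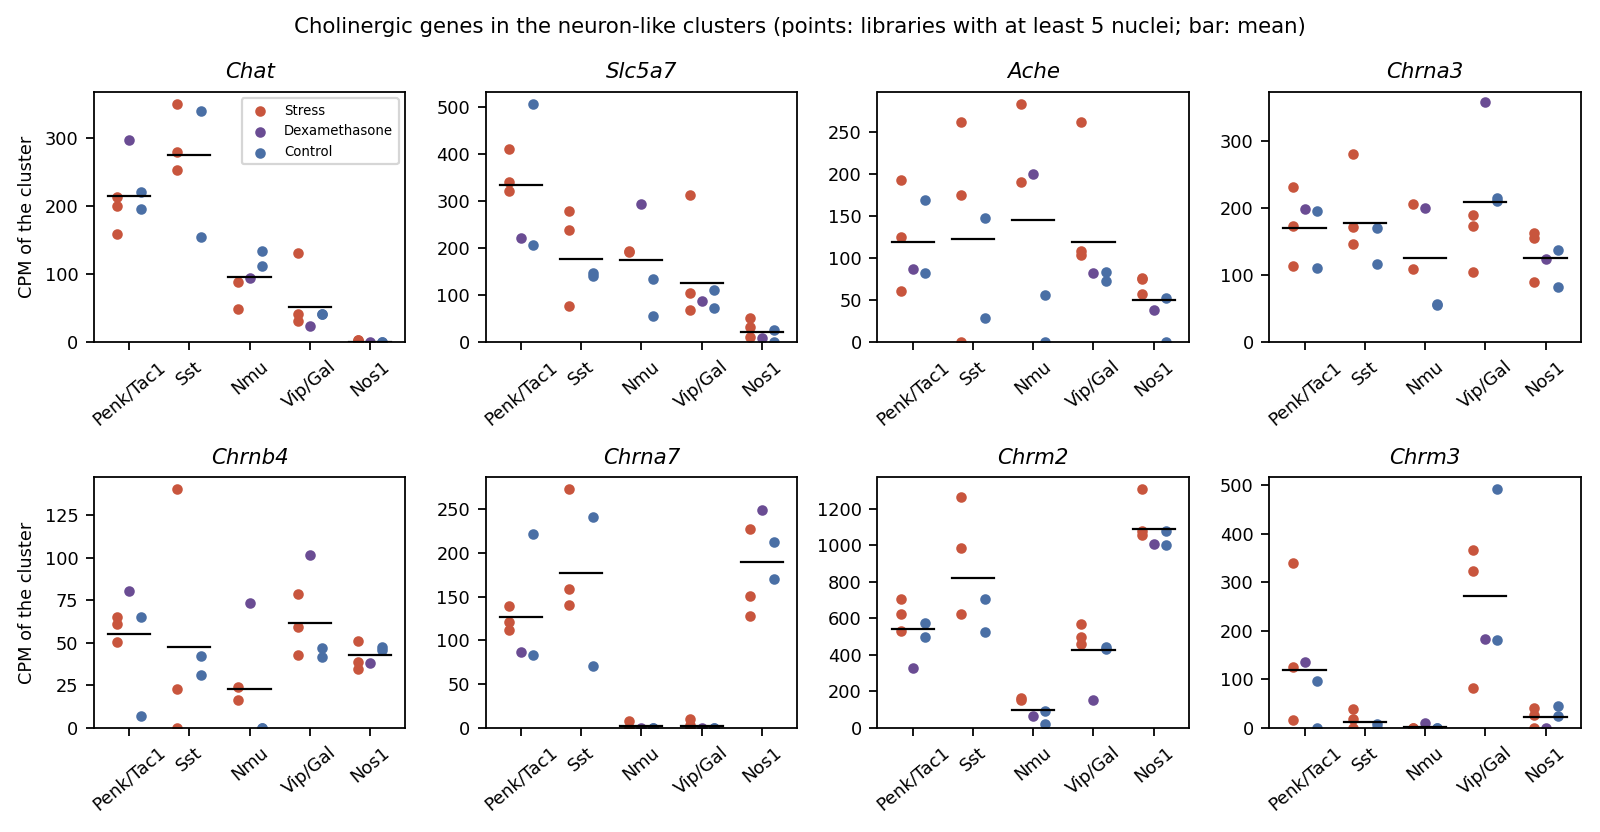
Level in CPM of 8 of the genes in the 5 neuron clusters; each point is a library with at least 5 nuclei of that cluster and the bar is their mean. Chat is near 0 in the Nos1 cluster in every library, Chrna7 near 0 in the Vip and Gal and the Nmu clusters, and Chrm2 is highest in the Nos1 cluster.

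Ache, the enzyme that splits acetylcholine, was also read from neurons but did not separate the neuron types as Chat did. It averaged 106 ± 36.6 CPM in neuron-like nuclei (n = 6; 545 of its 604 UMIs), and 4 UMIs were counted in smooth muscle-like and 16 in glia-like nuclei. Of the 771 epithelium-like nuclei, 17 had a UMI. Unnamed cluster 21, of shallow nuclei (median 806.5 UMIs), averaged 151 ± 256 CPM over 4 libraries, but this rests on 7 UMIs. By cluster it was 146 ± 115 CPM in the Nmu, 123 ± 108 in the Sst, 120 ± 52.2 in the Tac1 and Penk, 119 ± 71.2 in the Vip and Gal and 49.9 ± 28.3 CPM in the Nos1 cluster. The libraries of all neighbouring clusters overlapped. Ache was seen in 49.7% of nuclei with Chat and 27.0% of those without.

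The ganglionic nicotinic subunits Chrna3 and Chrnb4, which assemble into 1 receptor type in autonomic neurons, were present in all 5 neuron clusters. Chrna3 averaged 164 ± 45.6 CPM in neuron-like nuclei (n = 6), where 46.9% of nuclei had a UMI, and its cluster means ran from 208 ± 83.2 CPM in the Vip and Gal cluster to 125 ± 33.2 CPM in the Nos1 cluster. Chrnb4 averaged 48.3 ± 16.6 CPM, with cluster means of 61.8 CPM in the Vip and Gal cluster, 54.9 in Tac1 and Penk, 47.3 in Sst, 42.6 in Nos1 and 22.8 CPM in Nmu. Of the 249 nuclei with a Chrna3 UMI, 92 (36.9%) had one of Chrnb4, against 10.3% of the rest. Outside neurons Chrnb4 had at most 14 UMIs in a class (unnamed cluster 14) and Chrna3 at most 15 (epithelium-like).

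Chrna7, whose product forms a receptor of a single subunit kind, was restricted among neuron types in a way that Chrna3 was not. Its level was 189 ± 47.4 CPM in the Nos1 cluster, 177 ± 81.1 in the Sst cluster and 127 ± 50.8 CPM in the Tac1 and Penk cluster. The Vip and Gal cluster had 2.21 CPM (4 UMIs in 102 nuclei) and the Nmu cluster 1.62 CPM (2 UMIs in 81 nuclei). In glia-like nuclei 30 UMIs were counted. Across the class it averaged 102 ± 10.1 CPM, with the 6 libraries between 89.0 and 112 CPM, so it varied least of the 8 measured genes relative to its mean.

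Chrm2, the muscarinic receptor coupled to inhibitory G proteins, was highest in smooth muscle-like nuclei. It averaged 1356 ± 600 CPM there (n = 6; 905 to 2448) and 607 ± 136 CPM in neuron-like nuclei (376 to 783), and these ranges did not overlap. Vascular endothelium-like nuclei had 390 ± 341 CPM (4 libraries, 25 UMIs), and glia-like nuclei 9.75 CPM. Among neurons the Nos1 cluster, with almost no Chat, had the most Chrm2, at 1057, 1306 and 1076 CPM in Stress, 1004 CPM in Dexamethasone, and 999 and 1075 CPM in Control. It was followed by the Sst cluster at 820 ± 301 CPM, Tac1 and Penk at 543 ± 129, Vip and Gal at 426 ± 142 and Nmu at 98.3 ± 60.9 CPM.

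Within the smooth muscle-like class Chrm2 and Chrm3 sat together in 1 of its 2 clusters. The cluster led by Myh11 and Actg2, genes of the contractile apparatus (227 nuclei), had 1639 ± 610 CPM of Chrm2 and 1375 ± 462 CPM of Chrm3 (n = 6). The cluster led by Hs3st4 and Ak5 (86 nuclei), none of whose 10 leading genes was a smooth muscle marker, had 374 ± 126 CPM of Chrm2 and 164 ± 208 CPM of Chrm3 (n = 5). The smaller cluster made up 30.3%, 29.5% and 40.3% of the class in Stress, 25% in Dexamethasone, and 14.5% and 8.70% in Control.

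Chrm3, the muscarinic receptor that raises intracellular calcium in smooth muscle and glands, was found in several classes. It was at 1235 ± 289 CPM in unnamed cluster 14 (217 nuclei, led by Slc12a8 and Spdef, the latter a transcription factor of secretory epithelium), 1083 ± 461 in smooth muscle-like nuclei and 437 ± 229 CPM in lymphatic endothelium-like nuclei. Unnamed cluster 17 (115 nuclei, led by the proliferation genes Top2a and Mki67) had 289 ± 213, epithelium-like nuclei 180 ± 159, neuron-like nuclei 115 ± 71.3 and fibroblast-like nuclei 76.6 CPM. The ranges of neighbours in this order overlapped. Glia-like nuclei had 8.35 CPM, and thinned to 1000 UMIs 0.989% of them held a Chrm3 UMI, against 57.8% of cluster 14, 40.8% of smooth muscle-like and 27.9% of lymphatic endothelium-like nuclei.

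Inside the epithelium-like class the Chrm3 signal came mostly from the cluster led by Fcgbp and Clca1, genes of goblet cells (86 nuclei). Its libraries had 366, 1204 and 345 CPM in Stress, 602 CPM in Dexamethasone, and 2487 and 0 CPM in Control. Library Control 2 held only 7 of these nuclei, and the Control libraries lay at both ends of the range. The cluster led by Kcnq1 and Cftr had 108 ± 50.4 CPM (n = 6). Among neurons, Chrm3 was chiefly in the Vip and Gal cluster, at 272 ± 149 CPM, and in the Tac1 and Penk cluster, at 119 ± 122 CPM, and was 23.0 CPM or less in the other 3.

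**Figure D3:**
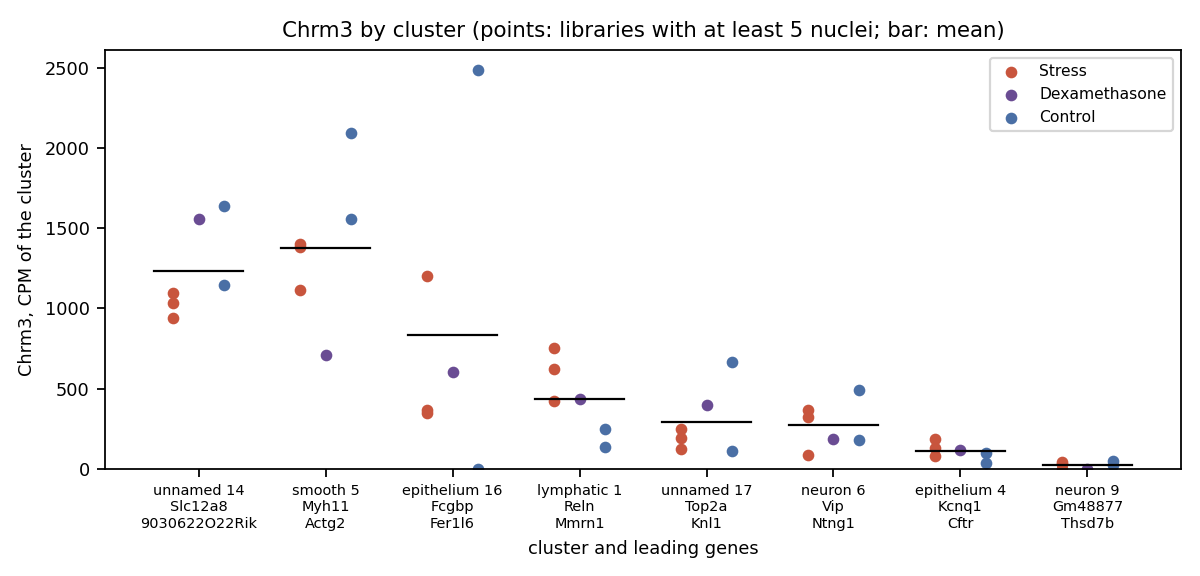
Chrm3 level in CPM in 8 clusters, each named by its 2 leading genes; points are libraries, coloured by group, and bars are means. Unnamed cluster 14 is at 942 CPM or more and the smooth muscle cluster led by Myh11 and Actg2 at 707 CPM or more in every library, while the goblet-gene cluster (Fcgbp) runs from 0 to 2487 CPM between the Control libraries.

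Across the groups, none of the 9 genes passed the test in neuron-like nuclei. The UMIs of a class were summed per library and tested with edgeR's quasi-likelihood test, with Benjamini-Hochberg adjustment over all genes. For Stress against Control 8021 genes were tested and 0 were called, a background of 0%; 818 had an unadjusted p under 0.05, and DESeq2 called 12. For Dexamethasone against Control 0 of 9305 were called, again 0%, with 969 at an unadjusted p under 0.05 and 13 called by DESeq2. The single Dexamethasone library is assumed there to vary like the others. Of the 9 genes 8 had enough UMIs to be tested, all but Slc18a3, and 0 passed in either comparison, by edgeR or DESeq2; 1 had an unadjusted p under 0.05 in Stress and 3 in Dexamethasone. Their median log2 fold change was 0.12 in Stress, against 0.0016 over all genes tested, and 0.07 in Dexamethasone, against -0.01.

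Chat had 121, 119 and 90.7 CPM in Stress, 124 CPM in Dexamethasone, and 98.3 and 138 CPM in Control. The Stress and Dexamethasone values lay within the span of the Control libraries, except Stress 3, the lowest of the 6. In Stress the log2 fold change was -0.16 ± 0.24 (SE), with a 95% interval of -0.69 to 0.37 (edgeR adjusted p = 0.856), and 0.01 ± 0.32 in Dexamethasone, with an interval of -0.68 to 0.70 (edgeR adjusted p = 0.994). The share of neuron-like nuclei with a Chat UMI, thinned to 1000 UMIs, was 0% (0 of 28 nuclei, which allows up to 10.7% with a UMI at that depth), 9.09% and 8.33% in Stress, 11.4% in Dexamethasone, and 9.49% and 12.3% in Control. Every Stress library was below both Control libraries, but the nearest pair was 9 of 99 nuclei in Stress 2 and 13 of 137 in Control 1. The share of all genes that separate so after thinning was not computed. The means were 5.81% ± 5.04 in Stress (n = 3), which holds the library at 0%, and 10.9% ± 1.97 in Control (n = 2). The difference of -5.08 percentage points gave p = 0.4 by a two-sided exact permutation test over libraries, whose smallest possible p is 0.1. Without thinning the shares were 23.5%, 42.7% and 42.3% in Stress, 24.3% in Dexamethasone, and 24.1% and 38.7% in Control, and the difference was 4.81 points in the other direction (exact permutation p = 0.6).

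Slc5a7 had 230, 171 and 178 CPM in Stress, 160 CPM in Dexamethasone, and 104 and 180 CPM in Control. The groups overlapped, and Control 1 was the lowest of the 6 libraries. In Stress it differed from Control by a log2 fold change of 0.39 ± 0.26 (95% interval -0.19 to 0.97; edgeR adjusted p = 0.635) and in Dexamethasone by 0.13 ± 0.34 (edgeR adjusted p = 0.928).

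Of the 8 genes tested in neuron-like nuclei, Ache had the smallest p in Stress. It had 113, 123 and 165 CPM in Stress (28, 157 and 227 UMIs), 92.3 CPM in Dexamethasone (56 UMIs), and 83.4 and 59.0 CPM in Control (56 and 21 UMIs). The 3 Stress libraries were all above both Control libraries, with means of 134 ± 27.4 CPM in Stress and 71.2 ± 17.2 CPM in Control; 17.7% of all genes tested lay that way round. Its log2 fold change in Stress was 0.84 ± 0.23, with a 95% interval of 0.32 to 1.36 and an unadjusted p of 0.00466, and it did not pass (edgeR adjusted p = 0.304). Without the Nmu cluster it was 0.56 (edgeR adjusted p = 0.575), and with the shallow libraries Control 1 and Stress 1 both left out it was 1.18 (edgeR adjusted p = 0.0247), over a range of 0.0247 to 0.903 across the alternatives. In Dexamethasone it was 0.24 ± 0.32 (edgeR adjusted p = 0.832), and -0.19 without the Nmu cluster.

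The nicotinic subunits showed no called difference. Chrna3 had 109, 156 and 189 CPM in Stress, 241 CPM in Dexamethasone, and 143 and 146 CPM in Control. Stress spanned both Control libraries and Dexamethasone was the highest of the 6. Its log2 fold change was 0.07 ± 0.21 in Stress (edgeR adjusted p = 0.944) and 0.65 ± 0.27 in Dexamethasone (edgeR adjusted p = 0.434), the last running from 0.11, without the mitochondrial filter, to 0.97, with thinned totals, over the alternatives. Chrnb4 had 60.5, 38.5 and 41.4 CPM in Stress, 75.8 CPM in Dexamethasone, and 31.3 and 42.1 CPM in Control. Stress overlapped Control, and Dexamethasone, here too, was the highest library. For Chrna3 and Chrnb4 it was above both Control libraries, as for 41.9% of all genes tested. The log2 fold change of Chrnb4 was 0.21 ± 0.32 in Stress (edgeR adjusted p = 0.859) and 1.00 ± 0.38 in Dexamethasone (95% interval 0.17 to 1.83; edgeR adjusted p = 0.378), which turned to -0.24 without the mitochondrial filter. Chrna7 had 109, 89.6 and 108 CPM in Stress, 89.0 CPM in Dexamethasone, and 103 and 112 CPM in Control. Stress and Control overlapped, and the log2 fold change was -0.15 ± 0.20 in Stress (edgeR adjusted p = 0.836) and -0.35 ± 0.28 in Dexamethasone (edgeR adjusted p = 0.704; -0.60 to -0.056 over the alternatives).

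The muscarinic receptors in neuron-like nuclei did not pass either. Chrm2 had 783, 691 and 614 CPM in Stress, 376 CPM in Dexamethasone, and 605 and 573 CPM in Control. All Stress libraries were above both Control libraries, as for 17.7% of all genes tested, by less than the spread within Stress for the nearest pair. Dexamethasone was the lowest of the 6, and it was below both Control libraries, as for 29.3% of all genes tested. The log2 fold change was 0.18 ± 0.19 in Stress (95% interval -0.24 to 0.60; edgeR adjusted p = 0.777) and -0.74 ± 0.26 in Dexamethasone (95% interval -1.31 to -0.16; edgeR adjusted p = 0.348). The Dexamethasone value ran from -0.82 to -0.17 over the alternatives, the smallest with the stricter filter on nuclei. Chrm3 ran from 37.7 to 218 CPM in Stress, was 101 CPM in Dexamethasone, and 173 and 42.1 CPM in Control, and its log2 fold change of -0.19 ± 0.65 in Stress had an interval of -1.62 to 1.25 (edgeR adjusted p = 0.951).

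The Dexamethasone library had another mix of neurons. Its Nmu cluster made up 60.0% of neuron-like nuclei, against 5.06% and 9.68% in Control and 8.82% to 11.7% in Stress, but those nuclei were shallow (median 664 UMIs) and gave 15.7% of its neuron-like UMIs. Markers of smooth muscle summed to 169, 318 and 460 CPM in the neuron-like nuclei of Stress, 925 CPM in Dexamethasone, and 261 and 225 CPM in Control; all 9 were detected in Dexamethasone. Glia markers summed to 24.2, 63.7 and 161 CPM in Stress, 193 CPM in Dexamethasone, and 90.8 and 19.7 CPM in Control, with Fabp7 and Entpd2 at 0 in every library. Their part in the neuron-like values was not tested.

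**Figure D4:**
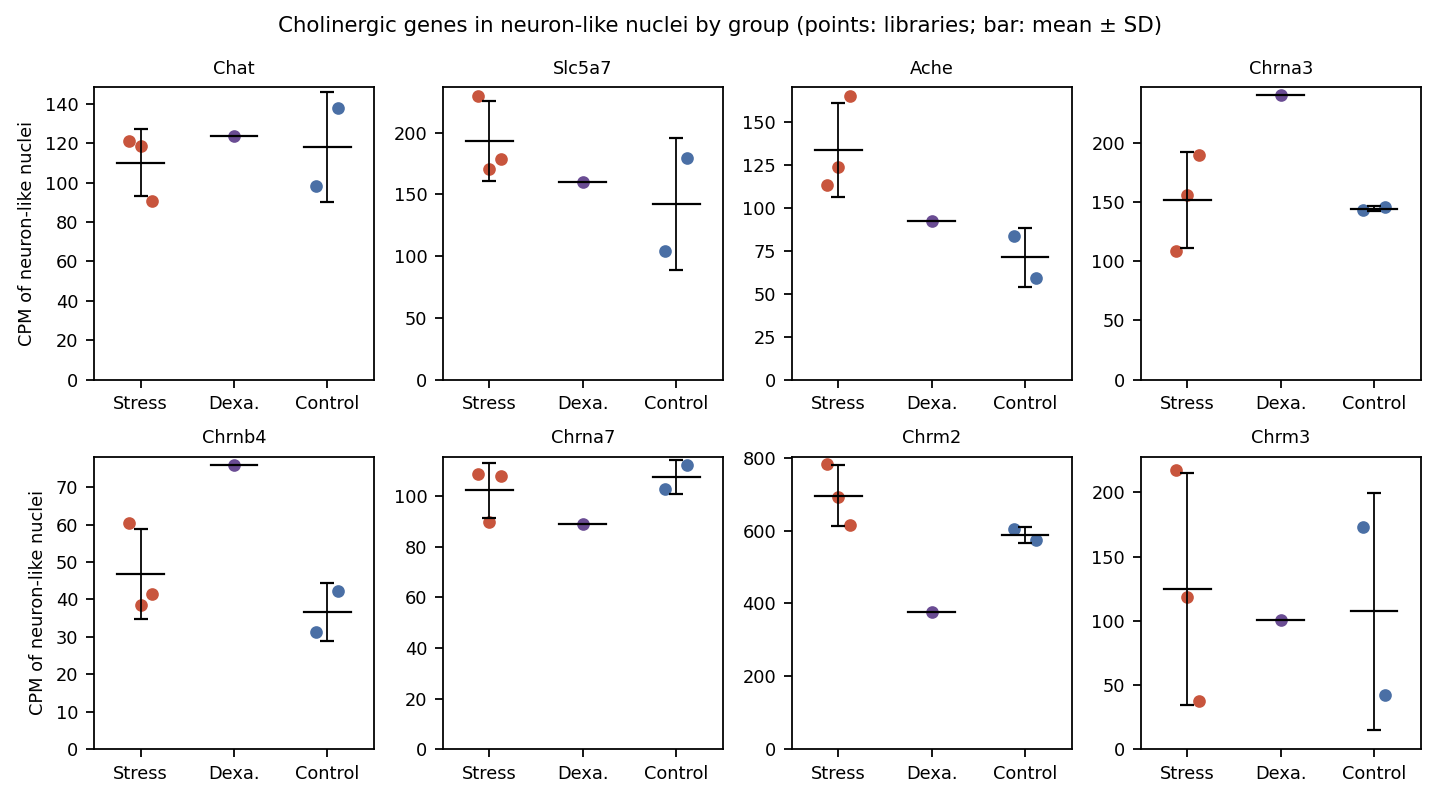
Level in CPM of 8 of the genes in neuron-like nuclei of Stress (3 libraries), Dexamethasone (1) and Control (2); points are libraries, and the mark and line are the mean and SD. Stress lies above Control without overlap for Ache and Chrm2, as for 17.7% of all genes tested, and no gene passed the test.

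In smooth muscle-like nuclei both muscarinic receptors were lower in each treated group than in Control, and neither passed the test over all genes. Chrm2 had 905, 992 and 973 CPM in Stress (124, 170 and 279 UMIs), 1162 CPM in Dexamethasone (330 UMIs), and 1652 and 2448 CPM in Control (172 and 147 UMIs). The 3 Stress libraries were close to each other and all below both Control libraries. The means were 957 ± 45.7 CPM in Stress and 2050 ± 563 CPM in Control. In Stress the fitted log2 fold change was -1.20 ± 0.24, with a 95% interval of -1.73 to -0.66, a fold of 0.436 (unadjusted p = 0.000378; edgeR adjusted p = 0.0889). In Dexamethasone it was -0.90 ± 0.34 (95% interval -1.62 to -0.17; edgeR adjusted p = 0.371).

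Chrm3 had 759, 1097 and 897 CPM in Stress (104, 188 and 257 UMIs), 571 CPM in Dexamethasone (162 UMIs), and 1306 and 1865 CPM in Control (136 and 112 UMIs). Dexamethasone was the lowest library, and all Stress libraries were below both Control libraries. For Stress the fitted log2 fold change was -0.89 ± 0.26 (95% interval -1.45 to -0.33; edgeR adjusted p = 0.223). In Dexamethasone it was -1.55 ± 0.37 (95% interval -2.33 to -0.77), a fold of 0.342 (unadjusted p = 0.000659; edgeR adjusted p = 0.0856).

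Over all genes in this class, 3 of 2822 (0.106%) were called in Stress, with 321 at an unadjusted p under 0.05 and 21 called by DESeq2, and 27 of 4285 (0.63%) in Dexamethasone, with 425 and 9. Of the 9 genes only these 2 had enough UMIs to be tested, and 0 passed in either comparison. All Stress libraries were below both Controls for 11% of all genes tested and above both for 19%, and Dexamethasone was below both Controls for 25.2%. The TMM scaling lowered the log2 fold change of every gene in this class by 0.12 in Stress and 0.13 in Dexamethasone, less than either receptor's. The call depended on the settings. Chrm2 in Stress passed with DESeq2 (adjusted p = 0.00836), with a stricter filter on nuclei (edgeR adjusted p = 0.0416) and without Control 1 (edgeR adjusted p = 0.0393), over a range of 0.00836 to 0.383. Chrm3 in Dexamethasone passed with DESeq2 (adjusted p = 0.0302), without Stress 2 (edgeR adjusted p = 0.0137) and in 3 other settings, over a range of 0.00444 to 0.242. Without Control 2 the Stress log2 fold changes were -0.86 for Chrm2 and -0.58 for Chrm3.

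Both genes kept the direction in the Myh11 and Actg2 cluster alone. Chrm2 had 1158, 1354 and 1275 CPM in Stress, 1345 CPM in Dexamethasone, and 1951 and 2750 CPM in Control there. The treated libraries did not overlap the Control libraries, but the share of all genes that separate so in this cluster was not computed. The log2 fold change in Stress was -0.98 (edgeR adjusted p = 0.0834). Chrm3 had 1114, 1380 and 1400 CPM in Stress, 707 CPM in Dexamethasone, and 1556 and 2095 CPM in Control. Its log2 fold change was -0.57 in Stress (edgeR adjusted p = 0.400) and -1.49 in Dexamethasone (edgeR adjusted p = 0.0321). The summed level of the 9 smooth muscle markers in the class was 12921, 16127 and 13886 CPM in Stress, 13519 CPM in Dexamethasone, and 12373 and 16071 CPM in Control, so the groups overlapped in it and all 9 were detected in every library. Neuron markers in the same nuclei summed to 58.4, 175 and 181 CPM in Stress, 345 CPM in Dexamethasone, and 96.1 and 99.9 CPM in Control, and their part was not tested.

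For Chrm2 in Stress the sign differed between the classes, above Control in neuron-like and below it in smooth muscle-like nuclei. The difference of the log2 fold changes, smooth muscle-like minus neuron-like, was -1.32 ± 0.41 and did not pass (unadjusted p = 0.00254; edgeR adjusted p = 0.367; 5 of 6073 genes, 0.0823%, were called). For Chrm3 in Dexamethasone the same difference was -1.27 ± 0.60 (edgeR adjusted p = 0.561; 64 of 7583 genes, 0.844%, were called). These tests were chosen after the values were seen. Their model held a term for each library, so the classes were compared within a library.

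**Figure D5:**
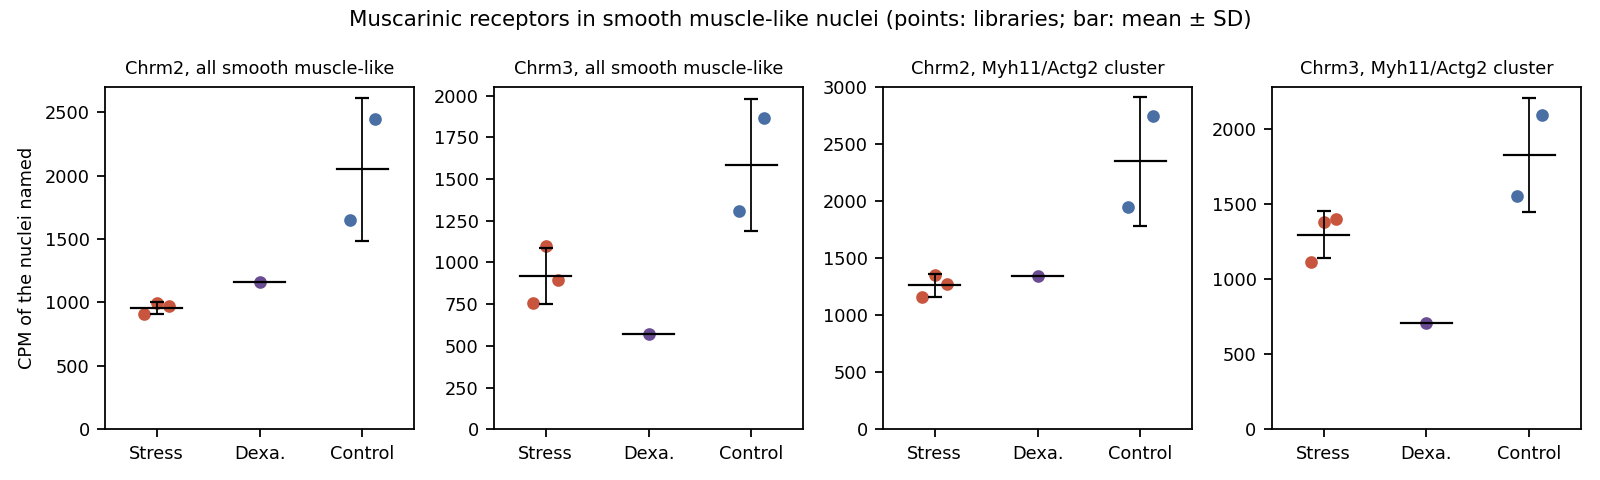
Chrm2 and Chrm3 level in CPM in all smooth muscle-like nuclei and in the Myh11 and Actg2 cluster, for Stress (3 libraries), Dexamethasone (1) and Control (2), with points for libraries and the mean and SD. The Control libraries are the highest in every panel, and Chrm3 is lowest in Dexamethasone.

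In lymphatic endothelium-like nuclei Chrm3 lay the other way. It had 624, 755 and 424 CPM in Stress (17, 38 and 37 UMIs), 434 CPM in Dexamethasone (52 UMIs), and 249 and 135 CPM in Control (5 and 3 UMIs). All Stress libraries were above both Control libraries, as for 17.7% of the genes tested there (7.06% were below both), but the Control values rest on 8 UMIs. Dexamethasone was above both as well, as for 32.1%. Its log2 fold change was 1.52 ± 0.52 in Stress (95% interval 0.42 to 2.62; edgeR adjusted p = 0.390) and 1.20 ± 0.62 in Dexamethasone (edgeR adjusted p = 0.740). Of all genes 0 of 524 (0%) were called in Stress, with 44 at an unadjusted p under 0.05 and 0 called by DESeq2, and 4 of 1439 (0.278%) in Dexamethasone. This class and cluster 14 were tested after their values were seen.

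In unnamed cluster 14, the Slc12a8 and Spdef cluster, Chrm3 had 942, 1098 and 1035 CPM in Stress, 1555 CPM in Dexamethasone, and 1637 and 1145 CPM in Control. Stress was below both Control libraries, as for 8.63% of the genes tested there (14.7% were above both), and Dexamethasone lay between the Controls, while 32.9% of genes were above both and 34.1% below both. The log2 fold change was -0.53 ± 0.24 in Stress (95% interval -1.04 to -0.02; edgeR adjusted p = 0.773; 1 of 2491 genes, 0.0401%, called), with -0.14 when Control 1 and -0.75 when Control 2 was left out, and 0.13 ± 0.33 in Dexamethasone (edgeR adjusted p = 0.965; 1 of 3378, 0.0296%, called).

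In epithelium-like nuclei Chrm3 was the only one of the 9 genes tested. It had 79.2, 205 and 89.9 CPM in Stress, 214 CPM in Dexamethasone, and 466 and 23.2 CPM in Control, so the 2 Control libraries enclosed all the others. The log2 fold change was -1.05 ± 0.83 in Stress (edgeR adjusted p = 0.996; 0 of 4947 genes, 0%, called, 197 at an unadjusted p under 0.05, 2 by DESeq2) and -0.65 ± 1.23 in Dexamethasone (edgeR adjusted p = 0.910; 1 of 6379, 0.0157%, called). In fibroblast-like nuclei Chrm3 had 4, 17 and 0 UMIs in Stress, 0 in Dexamethasone, and 9 and 2 in Control. The Stress difference was -0.43 ± 1.21 on the log2 scale (edgeR adjusted p = 0.930; 23 of 1730 genes, 1.33%, called). Dexamethasone was at least 3.20-fold lower than the summed Control nuclei, with 3 counts over the group as its upper limit, but 9 of the 11 Control UMIs came from Control 1. That limit, 32.2 CPM, lay near the 36.8 CPM of Control 2, and Stress 3 was at 0 as well (edgeR adjusted p = 0.408; 54 of 2856, 1.89%, called). In glia-like nuclei 0 of the 9 genes had enough UMIs to be tested, while 136 of 6557 genes (2.07%) were called there in Stress and 462 of 7718 (5.99%) in Dexamethasone.

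The other genes of the pathway, a list of 31, held the remaining receptor subunits, choline transporters and kinases, butyrylcholinesterase, the enzyme anchors and receptor chaperones. They gave 0 passing genes in either direction in every class where any were tested. Outside neurons few had enough UMIs. In Stress and Dexamethasone 7 and 7 were tested in glia-like and 4 and 5 in epithelium-like nuclei. Smooth muscle-like nuclei had 1 and 3, fibroblast-like nuclei 1 and 2, and cluster 14 had 4 and 4. In neuron-like nuclei 11 were tested in Stress, 6 of them above 0 with a median log2 fold change of 0.13, and 12 in Dexamethasone, 4 above 0 with a median of -0.18. The smallest p in Stress belonged to the choline transporter Slc44a1, with a log2 fold change of -0.38 (edgeR adjusted p = 0.536), the choline kinase Chka at -0.33 (edgeR adjusted p = 0.588) and the muscarinic receptor Chrm1 at 0.44 (edgeR adjusted p = 0.644). In Dexamethasone they were butyrylcholinesterase (Bche) at -1.30 (edgeR adjusted p = 0.479), the nicotinic receptor modulator Lynx1 at -2.64 (edgeR adjusted p = 0.488) and Prima1, the membrane anchor of Ache, at 0.82 (edgeR adjusted p = 0.666).

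Levels by neuron type, over all nuclei of a cluster and without a test, varied for some of these genes and little for others, and the examples were chosen after their values were seen. Slc44a5, of the choline transporter-like family, had 1162 CPM in the Nos1 cluster, 931 in Vip and Gal, 331 in Sst, 40.1 in Nmu and 9.33 CPM in Tac1 and Penk. Colq, the collagen tail of Ache, had 64.4 CPM in the Tac1 and Penk cluster and 0.985 CPM (1 UMI) in the Nos1 cluster. Chrna5, an accessory nicotinic subunit that neighbours Chrna3 on the opposite strand, had 43.3 CPM in the Nmu cluster and 9.33 CPM in the Tac1 and Penk cluster. Ric3, a receptor chaperone, was between 35.3 and 47.5 CPM in the 5 clusters, and Chka between 97.8 and 151 CPM. The muscle-type subunits Chrna1, Chrnd, Chrne and Chrng had no UMI in neuron-like nuclei and Chrnb1 had 4, and the muscarinic receptor Chrm5 had none.

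The genes whose profile over the 23 clusters was most like each member were found by Pearson's r on log2(CPM + 10), among 10756 genes. For Chat they were Slc5a7 (r = 0.949), Dmkn (0.922) and Trpc7 (0.915), and for Slc5a7 they were Cxxc4 (0.951), Chat and Lingo2 (0.945). Chrna3 was closest to Cxxc4 (0.964), Gabrg3 (0.963) and Clgn (0.962), Chrnb4 to Neurl1a (0.942), Mirg (0.934) and Fam169a (0.932), and Chrna7 to Gm15398 (0.904), Gm2516 (0.879) and Cnga3 (0.876). For Ache, Nyap2 (0.943) and Tubb2b (0.915) were among the closest. The muscarinic receptors had lower values, Chrm2 with Kcnip4 (0.889), Slc8a3 (0.868) and Ptchd1 (0.865), and Chrm3 with Fam189a1 (0.824), Farp1 (0.745) and Abl1 (0.720). The clusters share libraries and differ in depth, so these are descriptions.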

How the data were processed

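The authors deposited gene-by-barcode matrices of UMI counts, raw and not normalized, with lists of gene and barcode names; per the file headers they came from Cell Ranger 4.0.0 for Stress and Control and 5.0.1 for Dexamethasone, while the submitters' processing notes name Cell Ranger 5 and mm10. By the headers the version coincides with the Dexamethasone group, so their parts in a Dexamethasone difference cannot be told apart. Intron counting and the assignment of overlapping genes are not given in the sources used here. Barcodes under 300 genes or over 5% mitochondrial UMIs were left out, 24 doublets called by Scrublet (0.693% of 3461) removed, and the rest clustered with scanpy 1.11.5 (2000 variable genes with library as batch key, 30 components, 15 neighbours, Leiden 1.0), leaving out the pathway genes. Clusters were named from 17 marker lists, and neuron clusters scored on 4 more. Class UMIs were summed per library where every library had at least 10 nuclei and tested with edgeR 4.0.16 (glmQLFTest, TMM, filterByExpr; limma 3.58.1, R 4.3.3) at an adjusted p of 0.05; Stress against Control used those 5 libraries and Dexamethasone against Control all 6. DESeq2 1.42.0 was an alternative. Depth limits low genes, and floors cover counting error only. The 95% intervals of log2 fold changes come from the edgeR fit and include the spread between libraries. Named genes were all 9 members, the 3 of smallest p among 31 other pathway genes in neuron-like nuclei, and the 3 most like each member, of which a gene like Ache is not reported here. The labels state no pairing of replicate numbers, and the main tests used none. The members and lists were chosen with earlier results of these data known.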

Additional observations from a re-analysis of the deposited data

Results flagged for a closer look

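Chrm2 in Stress against Control was set apart because every Stress library was above both Control libraries in neuron-like nuclei and below both in smooth muscle-like nuclei. Of all genes tested, 17.7% lay above both in neuron-like nuclei and 11% below both in smooth muscle-like nuclei. The share of genes that did both was not computed, and the test of the difference was chosen after the values were seen. The smooth muscle-like minus neuron-like difference of the log2 fold changes was -1.32 ± 0.41, and it did not pass the test over all genes (edgeR adjusted p = 0.367). The neuron-like value was 0.18 and turned to -0.12 without the mitochondrial filter; the smooth muscle-like value was -1.20 and stayed between -1.43 and -0.86 over the alternatives run. The cause was not tested. No group had enough libraries for a search for single outlying values.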

How the results depend on the processing

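The count of passing members, 0 in each comparison, became 1 in 9 of 182 refits. For Stress these were Ache in neuron-like nuclei with Control 1 and Stress 1 both left out (1), and Chrm2 in smooth muscle-like nuclei with DESeq2 (1), with the stricter filter (1) and without Control 1. For Dexamethasone they were Chrm3 in smooth muscle-like nuclei with DESeq2 (1), with the replicate block (1; adjusted p = 0.0373), without Stress 2, in the Myh11-led cluster alone (1), and with Control 1 and Stress 1 both left out (1). Deviations of same-numbered libraries from their group means correlated by 0.104 or less in neuron-like and smooth muscle-like nuclei. In epithelium-like nuclei they correlated by 0.157 and -0.320. With 2 Control libraries these deviations are equal and opposite, so the correlations cannot show whether libraries were paired. The block changed no other member's call. Over all genes in Stress, the number called went from 0 to 77 with it in neuron-like and from 136 to 93 in glia-like nuclei. With each library left out in turn, the counts of passing members in these comparisons ranged from 0 to 1 in smooth muscle-like and stayed at 0 in neuron-like nuclei.

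The difference in the thinned Chat share, -5.08 points, reversed to 4.81 without thinning and ran from -6.72 to -2.17 with a library left out. It was -3.89 when thinned to 1500 UMIs (exact permutation p = 0.7) and -4.28 with doublets kept (exact permutation p = 0.4). Without the mitochondrial filter it was -2.98 (exact permutation p = 0.1, the smallest possible).

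Of 405 refitted log2 fold changes of members, 351 kept their direction and side of the threshold, 9 passed it and 45 reversed, none of these called. In neuron-like nuclei for Stress, the stricter filter gave 0.30 for Chat, 0.30 for Chrna7 and -0.11 for Chrnb4; no mitochondrial filter gave -0.12 for Chrm2 and -0.20 for Chrnb4; DESeq2 gave 0.17 for Chrm3; thinned totals gave 0.023 for Chrna7 and 0.25 for Chrm3; the replicate block gave -0.14 for Chrna3 and 0.78 for Chrm3; and leaving out Control 1 and Stress 1 gave -0.18 for Chrnb4, 0.79 for Chrm3 and -0.15 for Slc5a7. For Dexamethasone, the stricter filter gave 0.40 for Chrm3 and -0.54 for Slc5a7; no mitochondrial filter gave -0.39 for Chat and -0.24 for Chrnb4; Chat was -0.0017 with DESeq2 and -0.010 without the low-count filter; thinned totals gave -0.19 for Slc5a7; leaving out the Nmu cluster gave -0.19 for Ache and -0.14 for Slc5a7; and leaving out Control 1 and Stress 1 gave -0.24 for Chat, 1.16 for Chrm3 and -0.26 for Slc5a7. Chrm3 in epithelium-like nuclei turned to 0.83 in Stress and 0.72 in Dexamethasone in the Cftr-led cluster alone, and in fibroblast-like nuclei to 0.17 in Stress with the replicate block. With each library left out in turn, the neuron-like Stress values ran from -0.43 to 0.060 for Chat, -0.079 to 0.17 for Chrna3, -0.043 to 0.39 for Chrnb4, -0.77 to 1.26 for Chrm3 and -0.0080 to 0.78 for Slc5a7, and the Dexamethasone values from -0.25 to 0.24 for Chat, -0.87 to 1.16 for Chrm3 and -0.26 to 0.53 for Slc5a7. Chrm3 ran from -1.90 to 2.78 in Stress and -1.50 to 3.21 in Dexamethasone in epithelium-like nuclei, -1.10 to 1.06 in Stress in fibroblast-like nuclei, and -0.094 to 0.52 in Dexamethasone in cluster 14. The causes were not tested.

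Over the settings the number of all genes called ranged from 0 to 214 in neuron-like nuclei in both comparisons, and in smooth muscle-like nuclei from 0 to 41 in Stress and 0 to 103 in Dexamethasone. In Stress and Dexamethasone it ranged from 32 to 278 and 210 to 675 in glia-like, 0 to 45 and 0 to 37 in epithelium-like, 0 to 62 and 7 to 85 in fibroblast-like, 0 to 13 and 0 to 19 in lymphatic endothelium-like nuclei, and 0 to 17 and 0 to 13 in cluster 14. Few UMIs limit Chrnb4 in neuron-like nuclei and Chrm3 in fibroblast-like and lymphatic endothelium-like nuclei.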
